A study of Mus musculus with 31 samples.

Results

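RNA of CIS knockout (CIS KO) mouse natural killer (NK) cells was compared between 24 h with the cytokine TGFB1 and the unstimulated state. CIS, encoded by Cish, is a suppressor of cytokine signalling. The comparison took the 4 libraries labelled CIS KO with 24 h of TGFB1 and the 4 labelled CIS KO unstimulated, 8 of 31 libraries in the series. Its members were the expressed autosomal genes: of 23982 autosomal genes in the table, 16009 had a count in some library and 9749 passed the filter on low counts, out of 27179 genes in all. The groups set beside it were CIS KO cells at 4 h of TGFB1 (4 libraries), wild-type (WT) cells, unstimulated and at 24 h (4 and 4), and cells lacking the type II TGF-beta receptor (TGFBRII KO), unstimulated and at 24 h (3 and 3). The labels give the genotype as CIS_KO or TGFBRII_KO with no allele, promoter or Cre, and no strain, age, organ, dose of TGFB1 or culture medium, and they call the replicates biological. Where nothing further separates the cultures, p-values measure the spread between these libraries. CIS KO cells held for the same time without TGFB1 were not analysed here, and the effects of TGFB1 and of time cannot be told apart.

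TGF-beta ligands bind a pair of serine/threonine kinase receptors on the cell surface, and the activated receptors phosphorylate SMAD proteins, which enter the nucleus and change transcription together with partner factors. The pathway switches on its own brakes, among them PMEPA1, SKI and SKIL. In NK cells TGF-beta is known for restraining killing, proliferation and cytokine-driven metabolism, and for inducing the integrins of tissue-resident lymphocytes. CIS holds back the signal of the interleukin 15 receptor, on which NK cell growth depends.

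Levels are in CPM, counts scaled to 1 common library total by the TMM method. Changes are log2 fold changes ± standard error at 24 h against unstimulated, and calls are genes whose p from edgeR's quasi-likelihood test, after Benjamini-Hochberg adjustment, lay below 0.05. Total counts ran from 392266 to 711659 in the unstimulated and from 590009 to 1403005 in the 24 h CIS KO libraries, and 24 h replicate 2 was the deepest of the series. Results are therefore also given between depth-matched libraries, that is without this library and without the shallowest unstimulated one (replicate 1). Unstimulated replicates 2 and 3, and 24 h replicates 1 and 3, differed by less than sampling noise (chi-square per degree of freedom 0.85 and 0.925). So did pairs in the TGFBRII KO groups, WT unstimulated replicates 2 and 4 (0.893) and CIS KO 4 h replicates 2 and 4 (0.958). All were kept as separate samples. With the unstimulated and the 24 h CIS KO pair each counted as 1 sample, 881 genes were higher and 857 lower. The WT, TGFBRII KO and 4 h pairs were not merged in that fit. The targeted transcript stood at 27.6, 33.4, 21.6 and 18.0 CPM in the unstimulated CIS KO libraries, below the lowest unstimulated WT library, where Cish was at 130 CPM. Summed markers of NK cells ran from 6074 to 9421 CPM unstimulated and from 4009 to 6680 CPM at 24 h, ranges that overlap. The marker Itga2 stayed at or below 3.93 CPM. Of 15 measured markers 5 were called lower (median -0.41), and 3 depth-matched (median -0.11). Over all genes 11.7% were lower, and 6.89% depth-matched. In bulk RNA, fewer cells of a type and less RNA per cell cannot be told apart.

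At 24 h, 1230 genes were higher and 1138 lower in CIS KO cells, which is 12.6% and 11.7% of those tested. The 4 and 4 libraries did not overlap for 1093 higher and 957 lower genes (11.2% and 9.82%). Large changes were mostly rises: 412 called genes rose and 197 fell by more than 1 on the log2 scale, and 113 rose and 35 fell by more than 2. These counts by size were not made depth-matched. Depth-matched, 617 genes were higher and 669 lower (6.35% and 6.89%), and without 24 h replicate 2 alone 743 were higher. These shares of all genes are the background for the counts within gene lists below. Abundant genes leaned downward, with 19 higher and 237 lower of 833 genes at 0.05 or more counts per base of exon (median -0.26). Depth-matched, the same class had 31 higher and 82 lower and a median of -0.06. Genes below 0.01 counts per base leaned upward, with 728 higher and 226 lower of 4423 (median 0.21). That class had 287 higher and 207 lower depth-matched (median 0.06), so the excess of rises there was smaller between libraries of like depth. Every autosome took part, with between 20.3% and 28.3% of its tested genes called.

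Promoters of 6 genes that fell, from the cholesterol, endoplasmic reticulum and mitosis groups, are shown because a short sequence recurs in them. The windows are the 250 bases before the annotated start, taken from RefSeq on GRCm38.p6, and a single window was found for 6167 of the 9749 tested genes. Capitals mark each CCAAT box, searched as CCAAT on both strands and so written CCAAT or ATTGG. Hmgcs1 lies at chr13:119690101-119690350 (plus strand) with 3 matches, Cyp51 at chr5:4104698-4104947 (minus strand) with 1, Hspa5 at chr2:34771840-34772089 (plus) with 4, Sdf2l1 at chr16:17132384-17132633 (minus) with 3, Ube2c at chr2:164769679-164769928 (plus) with 6, of which a pair overlap, and Bub1 at chr2:127831860-127832109 (minus) with 2.
Hmgcs1: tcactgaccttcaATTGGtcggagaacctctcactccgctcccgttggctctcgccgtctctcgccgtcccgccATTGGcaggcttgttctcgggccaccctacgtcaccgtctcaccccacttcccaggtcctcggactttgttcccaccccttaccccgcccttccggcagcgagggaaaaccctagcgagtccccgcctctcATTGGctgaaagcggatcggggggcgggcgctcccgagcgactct
Cyp51: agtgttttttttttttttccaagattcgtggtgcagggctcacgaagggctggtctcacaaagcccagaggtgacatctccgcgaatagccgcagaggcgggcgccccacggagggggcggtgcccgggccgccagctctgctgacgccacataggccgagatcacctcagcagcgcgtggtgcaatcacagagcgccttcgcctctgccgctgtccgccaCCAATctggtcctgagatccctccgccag
Hspa5: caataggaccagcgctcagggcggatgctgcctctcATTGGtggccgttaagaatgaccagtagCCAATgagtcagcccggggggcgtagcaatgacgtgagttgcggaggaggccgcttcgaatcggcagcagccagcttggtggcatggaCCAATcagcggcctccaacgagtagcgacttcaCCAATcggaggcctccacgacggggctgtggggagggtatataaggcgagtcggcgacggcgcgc
Sdf2l1: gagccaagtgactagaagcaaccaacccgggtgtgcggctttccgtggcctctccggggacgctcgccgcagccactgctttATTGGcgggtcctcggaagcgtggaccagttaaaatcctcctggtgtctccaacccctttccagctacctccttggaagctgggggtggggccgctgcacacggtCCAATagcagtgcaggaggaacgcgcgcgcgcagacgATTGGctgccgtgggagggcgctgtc
Ube2c: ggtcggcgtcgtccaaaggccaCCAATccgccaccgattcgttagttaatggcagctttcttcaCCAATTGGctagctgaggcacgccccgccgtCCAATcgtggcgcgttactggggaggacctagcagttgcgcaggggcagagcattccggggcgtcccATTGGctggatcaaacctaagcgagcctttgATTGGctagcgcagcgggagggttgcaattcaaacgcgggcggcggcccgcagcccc
Bub1: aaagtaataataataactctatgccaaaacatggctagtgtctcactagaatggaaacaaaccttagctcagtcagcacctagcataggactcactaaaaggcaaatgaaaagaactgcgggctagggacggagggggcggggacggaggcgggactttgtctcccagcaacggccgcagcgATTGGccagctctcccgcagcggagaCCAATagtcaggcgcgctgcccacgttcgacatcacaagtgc
A CCAAT box was present in 37.5% of the windows of all tested genes, in 43.5% of those of genes called lower (328 of 754) and in 33.5% of those called higher (249 of 744). It was present in 12 of 13 windows of the cholesterol list, 12 of 15 of the endoplasmic reticulum list and 20 of 23 of the mitosis list. In the other lists searched it was in 6 of 9 windows for serine and folate and 9 of 16 for replication. It was in 4 of 8 windows for fatty acid synthesis and 0 of 5 for feedback inhibitors. The sterol regulatory element, also searched, was in 1 of 13 cholesterol windows and 0.795% of those of all tested genes. The cell cycle homology region was searched as TTTGAA on both strands. It was in 7 of 23 mitosis windows, 1 of 16 replication windows and 10.5% of those of all tested genes. Genes called lower had it in 15.4% (116 of 754), and all single-start autosomal promoters, tested or not, in 16.3%. The SMAD box, searched as CAGACA on both strands, was in 12.1% of the windows of genes called higher and 12.4% of all. These are matches of letters only.

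The largest rises were of transcripts that were not counted, or hardly counted, in unstimulated CIS KO cells. Pacsin1, a membrane-remodelling protein of the endocytic pathway (chromosome 17, 27655591 to 27711118), had no count in the 4 unstimulated libraries and stood at 120, 99.1, 140 and 158 CPM at 24 h. Set against a floor of 3 counts over the unstimulated group, it was at least 92.0-fold higher, a bound that covers counting error only. By the same floor Ccdc74a was at least 23.7-fold, Tbc1d16, a GTPase-activating protein of the Rab family, at least 22.2-fold and Rnase6, a secreted ribonuclease, at least 17.3-fold higher. Pgf, a growth factor of the VEGF family, was at least 9.49-fold higher, and Tle2, a transcriptional co-repressor, at least 5.17-fold. In each of these the 24 h libraries all held counts where the unstimulated ones held none.

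Immunoglobulin constant-region transcripts rose beside them. Igha, the heavy chain of immunoglobulin A, was at 8.29, 0, 1.96 and 0 CPM unstimulated and at 139, 128, 164 and 181 CPM at 24 h (6.19 ± 0.40, adjusted p = 2.13e-13). Ighm, the heavy chain of immunoglobulin M, rose from 12.5 ± 2.60 to 121 ± 36.9 CPM (SD, n = 4 each; 3.19 ± 0.28). All 24 h libraries lay above all unstimulated ones for both genes. The summed B cell markers moved from 9.28 to 22.1 CPM across unstimulated libraries to 223 to 352 CPM at 24 h through these 2 genes, while 10 of the 13 listed markers, Cd79a, Ms4a1, Pax5 and the light chain gene Igkc among them, were at 0 in all 8 libraries.

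**Figure D1:**
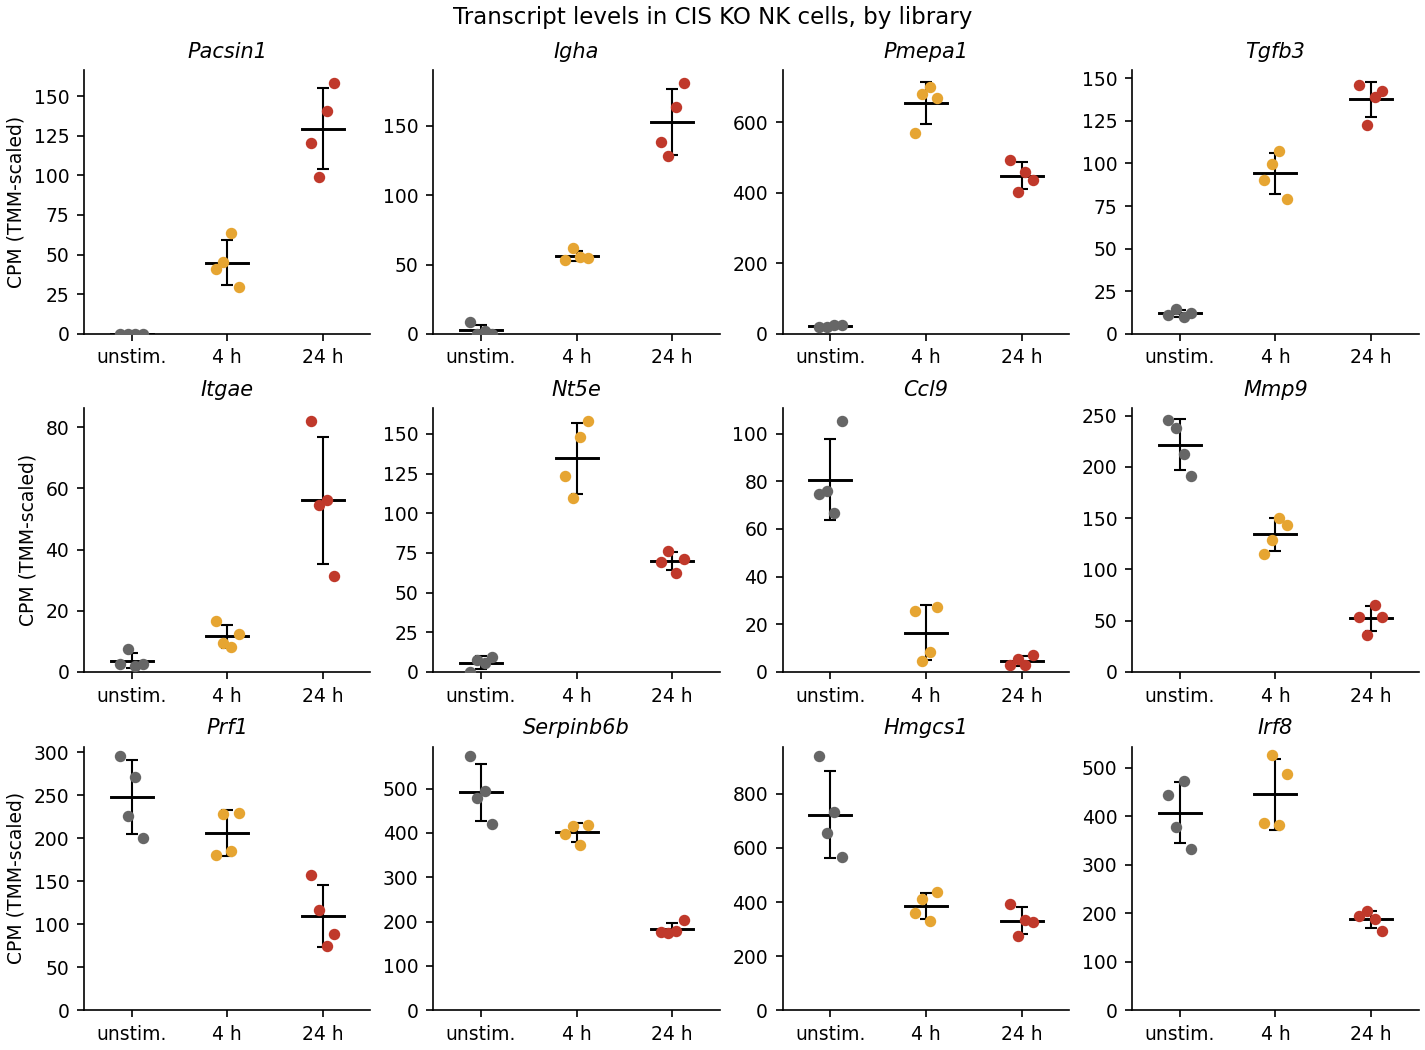
Transcript levels (CPM, linear axes from 0) of 12 genes in the 4 unstimulated, 4 h and 24 h CIS KO libraries, with 1 point per library and lines for the mean ± SD. Pacsin1, at 0 in the unstimulated libraries, reached 99.1 to 158 CPM at 24 h, and Ccl9 went from 66.8 to 105 CPM down to 2.83 to 6.96 CPM.

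The brakes of the pathway itself rose. Of 11 measured feedback inhibitors, 8 rose (median 1.19, against 0.04 over all genes), and 8 did so depth-matched. Shares of all genes that rose were 12.6% and 6.35%. Pmepa1, which keeps SMADs from the receptor (chromosome 2), was at 19.3, 18.6, 25.5 and 25 CPM unstimulated and at 494, 402, 458 and 437 CPM at 24 h (4.30 ± 0.25). Ldlrad4, a membrane relative of PMEPA1, rose from 3.67 ± 3.28 to 82.9 ± 9.17 CPM (4.25 ± 0.33). Ski rose from 97.0 ± 10.6 to 448 ± 36.3 CPM (2.19 ± 0.12) and Skil from 116 ± 9.62 to 307 ± 20.7 CPM (1.39 ± 0.12), both co-repressors that bind SMADs. The levels of these genes did not overlap between the groups. By the test of the difference, 6 of the 11 rose more than in TGFBRII KO cells (4.6% of all genes did, and 9.52% differed either way).

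Among ligands and receptors, Tgfb3, a TGF-beta ligand (chromosome 12), went from 11, 14.8, 9.82 and 12.5 CPM to 146, 123, 139 and 143 CPM (3.46 ± 0.19). Acvr1, a type I receptor of the family, rose from 3.99 ± 1.16 to 19.6 ± 1.53 CPM (2.19 ± 0.50), and Nrros, which anchors latent TGF-beta on the cell surface, fell from 120 ± 12.8 to 78.2 ± 5.90 CPM (-0.63 ± 0.11). Of 11 measured members of this list 5 rose and 1 fell (12.6% and 11.7% of all genes did). The rises numbered 3 without 24 h replicate 2 or without unstimulated replicate 1, and 2 depth-matched. Among the genes with the smallest p, Vipr2, a receptor for vasoactive intestinal peptide, rose by 4.00 ± 0.26, Gne, the entry enzyme of sialic acid synthesis, by 2.57 ± 0.13, and Smyd3, a lysine methyltransferase, by 2.04 ± 0.11. Vipr2 was at 3.71 to 9.82 CPM unstimulated and 103 to 148 CPM at 24 h.

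Genes of tissue residency rose, with 8 of 18 higher and 1 lower in the full (median 0.49) and in the depth-matched comparison (median 0.50). Without 24 h replicate 2 there were 2 lower. Shares over all genes were 12.6% higher and 11.7% lower, and 6.35% and 6.89% depth-matched. Itgae, the integrin CD103 (chromosome 11, 73090505 to 73147449), was at 2.76, 7.42, 1.96 and 2.77 CPM unstimulated and at 82.1, 54.6, 56.1 and 31.3 CPM at 24 h (3.85 ± 0.41). Nt5e, the adenosine-making ectoenzyme CD73, went from 0, 7.42, 5.89 and 9.71 CPM to 69.3, 76.2, 62.4 and 71.4 CPM (adjusted p = 6.31e-11). Both were high in all 24 h libraries, with no overlap. Ahr, a ligand-activated transcription factor, rose from 21.3 ± 3.90 to 89.4 ± 22.9 CPM (2.13 ± 0.27), and Itga1, the collagen-binding integrin CD49a, from 173 ± 25 to 378 ± 58.4 CPM (1.11 ± 0.13). All of these genes were called higher in WT too (1.77 for Ahr, 4.51 for Itgae). Their 24 h responses were not called different between the genotypes, which does not show them to be equal.

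Of 12 receptors for homing and exit 6 were lower (4 depth-matched; 11.7% of all genes were) and 2 higher, a share near the 12.6% of all genes. Itgb7, the integrin chain that pairs with CD103, rose from 93.2 ± 11 to 240 ± 72.0 CPM (1.30 ± 0.17), and the chemokine receptor gene Cxcr4 from 1.53 ± 1.16 to 9.73 ± 1.34 CPM (2.67 ± 0.60). The beta2 integrin chain Itgb2 (chromosome 10, 77530329 to 77565708) fell from 290, 263, 293 and 230 CPM to 126, 108, 117 and 134 CPM (-1.16 ± 0.11). Its partner Itgam, CD11b, fell from 105, 109, 110 and 110 CPM to 56.6, 70.8, 88.9 and 52.2 CPM (-0.68 ± 0.18). Neither gene's libraries overlapped. Sex-linked transcripts, given below, differed between CIS KO and WT, so genotype and sex cannot be told apart in what follows. In WT cells Itgb2 fell by 0.47 on the log2 scale and Itgam changed by 0.19, which was not called. The responses differed by -0.69 for Itgb2 (adjusted p = 0.00653; -0.60 and 0.067 depth-matched) and by -0.87 for Itgam (adjusted p = 0.0399), a call that was lost depth-matched (-0.93, adjusted p = 0.0981). It was also lost without any 1 of CIS KO 24 h replicates 1, 2 or 4, the unstimulated CIS KO replicates, WT 24 h replicates 3 or 4 and WT unstimulated replicates 2 or 3, at an adjusted p from 0.0578 to 0.119.

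**Figure D2:**
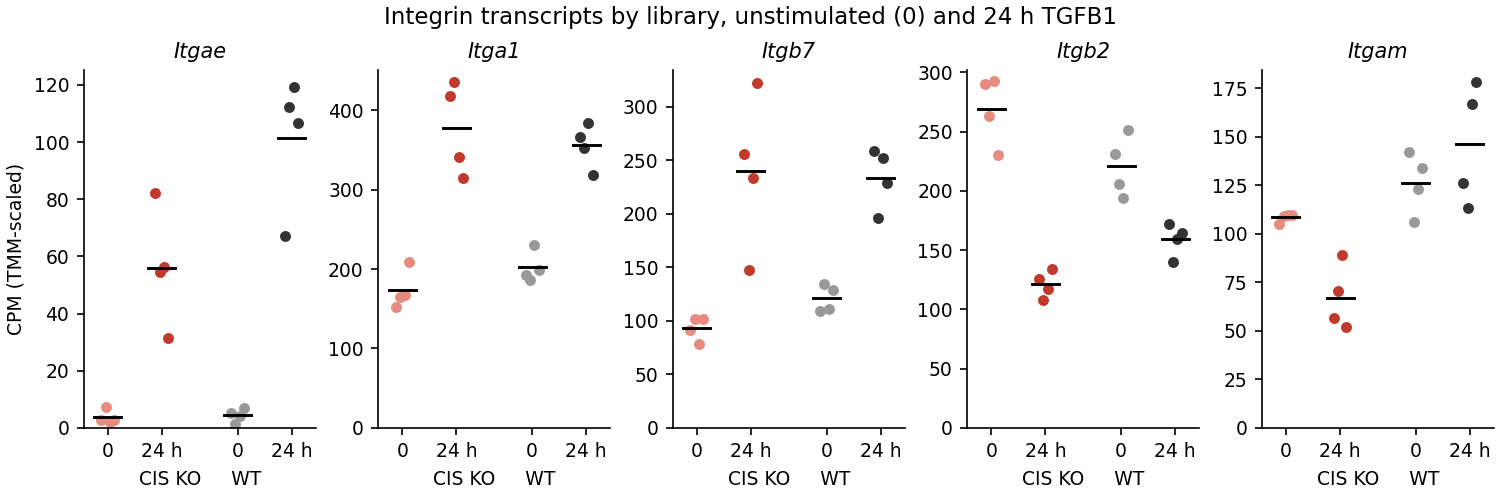
Levels (CPM, linear axes from 0) of 5 integrin genes in unstimulated and 24 h libraries of CIS KO (red) and WT (grey), 4 libraries per group, with lines for the mean. Itgae, Itga1 and Itgb7 were higher at 24 h in both genotypes, while Itgam was at 52.2 to 88.9 CPM in CIS KO and 113 to 178 CPM in WT at 24 h.

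Markers of circulating, mature NK cells fell, with 6 of 13 lower and 1 higher (median -0.43; 4 lower and 1 higher depth-matched). Irf8, a transcription factor of NK cell maturation and expansion, went from 445, 378, 473 and 333 CPM to 194, 204, 189 and 164 CPM (-1.10 ± 0.15), with no overlap. Klrg1, an inhibitory receptor of mature cells, fell by 0.59 ± 0.09 on the log2 scale, the surface protein gene Ly6c2 by 0.80 ± 0.15 and the mast cell protease gene Cma1 by 1.28 ± 0.29. Of 23 transcription factors of NK and innate lymphoid cells, 2 rose and 7 fell, also depth-matched, with 1 rise without 24 h replicate 3 or unstimulated replicate 4. The shares over all genes were 12.6% higher and 11.7% lower, and 6.35% and 6.89% depth-matched. Eomes, a T-box factor that defines NK cells, fell from 401 ± 26.0 to 300 ± 25.1 CPM (-0.41 ± 0.10). Ets1, needed for NK cell development, fell by 0.54 ± 0.11 and the AP-1 factor gene Batf by 0.81 ± 0.15.

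The killing machinery was lower. Of 19 cytotoxic granule genes 9 fell and 1 rose (median -0.66, against 11.7% and 12.6% of all genes). Depth-matched 5 fell and 1 rose (6.89% and 6.35% of all genes). The rise was not called without 24 h replicate 1, 3 or 4 or unstimulated replicate 1, 3 or 4. Prf1, the pore-forming perforin, was at 296, 226, 271 and 200 CPM unstimulated and at 157, 117, 74.8 and 88.8 CPM at 24 h (-1.13 ± 0.16). Serpinb9, the granzyme B inhibitor that protects the killer cell, fell from 555 ± 57.7 to 229 ± 35.3 CPM (-1.26 ± 0.12), and its relative Serpinb9b from 297 ± 60.0 to 98.8 ± 18.7 CPM (-1.60 ± 0.17). Stx11, a syntaxin of granule release, fell by 0.66 ± 0.13. The granzyme gene Gzmb went from 1047 ± 232 to 634 ± 151 CPM (-0.73 ± 0.18), with a depth-matched value of -0.44 that was not called (adjusted p = 0.110). Granzyme genes are close copies of each other, so their counts may be split between them. Serpinb6b, a serpin of the same clade, had the smallest p of the falls, from 574, 479, 495 and 419 CPM to 177, 174, 178 and 204 CPM (-1.42 ± 0.10, adjusted p = 1.08e-12).

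Some chemokine and receptor genes were lower as well. Ccl9, a CC chemokine (chromosome 11, 83572917 to 83578636), had the largest fall of the named genes, from 74.6, 76.1, 66.8 and 105 CPM to 2.83, 5.39, 3.12 and 6.96 CPM (-4.09 ± 0.34, adjusted p = 2.89e-11). Ccl3, an inflammatory chemokine of activated NK cells, fell from 151 ± 12.8 to 60.7 ± 4.12 CPM (-1.32 ± 0.17). The related Ccl4 and Ccl5 were called lower at -0.76 and -0.69, and not depth-matched (-0.49 and -0.35). Of 13 measured chemokines and cytokines 5 fell and 0 rose, and 2 fell and 0 rose depth-matched. There was 1 rise without 24 h replicate 3 or 4 or unstimulated replicate 3. Over all genes 11.7% fell and 12.6% rose, and 6.89% and 6.35% depth-matched. Among 16 activating receptors and adaptors 5 fell, including Ncr1, the receptor NKp46 (220 ± 15.7 to 121 ± 13.7 CPM, -0.87 ± 0.11), and Crtam (-1.01 ± 0.20); without 24 h replicate 2, or without unstimulated replicate 2, 3 fell. Of 16 inhibitory receptors 7 fell and 1 rose (6 and 1 depth-matched; the rise was not called without 24 h replicate 4 or unstimulated replicate 4), with Havcr2, the receptor TIM-3, at 193, 219, 263 and 189 CPM unstimulated and 90.6, 127, 104 and 88.8 CPM at 24 h (-1.02 ± 0.14), Lilrb4a at -0.99 ± 0.18 and Lair1 at -0.98 ± 0.17. In the list of the interleukin 12, interleukin 18 and interferon gamma axis 4 of 13 genes fell and 2 rose, and depth-matched 3 fell and neither rise was called. Without 24 h replicate 1, unstimulated replicate 1 or unstimulated replicate 2 there was 1 rise, and without 24 h replicate 2 neither was called. The falls included Il12rb1, a chain of the interleukin 12 receptor, at -0.77 ± 0.12, Ifngr1, of the interferon gamma receptor, at -0.66 ± 0.12 and Il27ra at -1.65 ± 0.31. The death ligand gene Tnfsf10, TRAIL, rose from 113 ± 18.0 to 182 ± 23.9 CPM (0.66 ± 0.12). In the list of death ligands and the TNF family 2 of 11 genes rose and 3 fell (median -0.31). Depth-matched 1 rose and 0 fell. The falls also numbered 0 without 24 h replicate 2 or unstimulated replicate 1, and 1 without unstimulated replicate 2. The rises numbered 1 without 24 h replicate 2.

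The mutated gene's own transcript rose at 24 h. Cish was at 50.9, 51.2, 56.1 and 47.0 CPM, above all unstimulated CIS KO libraries (1.07 ± 0.21, adjusted p = 0.000298). The WT response was 0.48, and the difference between the responses was not called (adjusted p = 0.259). Reads outside a deleted stretch are still counted for the gene, and the level does not report on the protein. Pim1, a kinase induced through STAT5, fell from 178 ± 16.8 to 96.5 ± 10.2 CPM (-0.86 ± 0.11). In the list from the interleukin 2 and 15 receptors to STAT5, 2 of 15 genes fell and 0 rose, also depth-matched. That share is near the 11.7% of all genes that fell. The list's median was -0.20, and -0.04 depth-matched.

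Cholesterol synthesis and uptake fell almost as a whole. Of 22 measured genes 21 fell (11.7% of all genes did), with a median of -0.80 against 0.04 over all genes, and 17 fell depth-matched. Lss was the exception at -0.10. Hmgcs1, which makes the HMG-CoA of the mevalonate pathway, was at 942, 655, 732 and 566 CPM unstimulated and at 393, 275, 332 and 326 CPM at 24 h (-1.12 ± 0.13). Cyp51, which demethylates lanosterol, went from 765, 549, 634 and 549 CPM to 378, 309, 332 and 352 CPM (-0.86 ± 0.11). For both genes the lowest unstimulated library lay above the highest at 24 h. Msmo1, a later sterol enzyme, fell by 0.95 ± 0.13 and Mvk, mevalonate kinase, by 0.87 ± 0.13. The summed level of the list was 4762 ± 585 CPM unstimulated, 2940 ± 205 at 4 h and 2788 ± 268 at 24 h. In WT, 20 of the 22 were called lower at 24 h (11.5% of all genes were). In TGFBRII KO cells the median change was 0.30, where 2 of all genes (0.0205%) were called higher, and the responses differed by test for 20 of 22 (4.92% of all genes).

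Of 9 genes of the sterol-sensing receptor LXR and of sterol export 3 rose, also depth-matched, and the list's median was 0.05. Over all genes 12.6% rose, and 6.35% depth-matched. The 3 were the cholesterol exporter Abcg1 (30.4, 44.5, 39.3 and 51.3 CPM to 80.7, 87.7, 88.9 and 76.6 CPM; 0.97 ± 0.18), Mylip, which degrades the LDL receptor (0.92 ± 0.17), and Npc1, which moves cholesterol out of lysosomes (0.53 ± 0.12). Fatty acid synthesis and desaturation had 6 of 14 genes lower, also depth-matched (11.7% of all genes were lower, and 6.89% depth-matched). Scd1, a desaturase, went from 215, 178, 161 and 190 CPM to 72.2, 91.7, 57.7 and 62.7 CPM (-1.31 ± 0.16), the elongase gene Elovl6 fell by 1.39 ± 0.21, the desaturase gene Fads2 by 2.22 ± 0.39 and Acly, which makes cytosolic acetyl-CoA, by 0.48 ± 0.11. Cpt1a, the gate of fatty acid oxidation, rose from 98.6 ± 15.9 to 138 ± 10.6 CPM (0.49 ± 0.11). Of 15 fatty acid oxidation genes 4 rose and 1 fell, and 1 rose and 0 fell depth-matched. The rises numbered 1 without 24 h replicate 1 or 2 or unstimulated replicate 1 or 2. They numbered 2 without replicate 3 of either group. The fall was not called without 24 h replicate 1 or 2 or unstimulated replicate 1, 2 or 3.

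**Figure D3:**
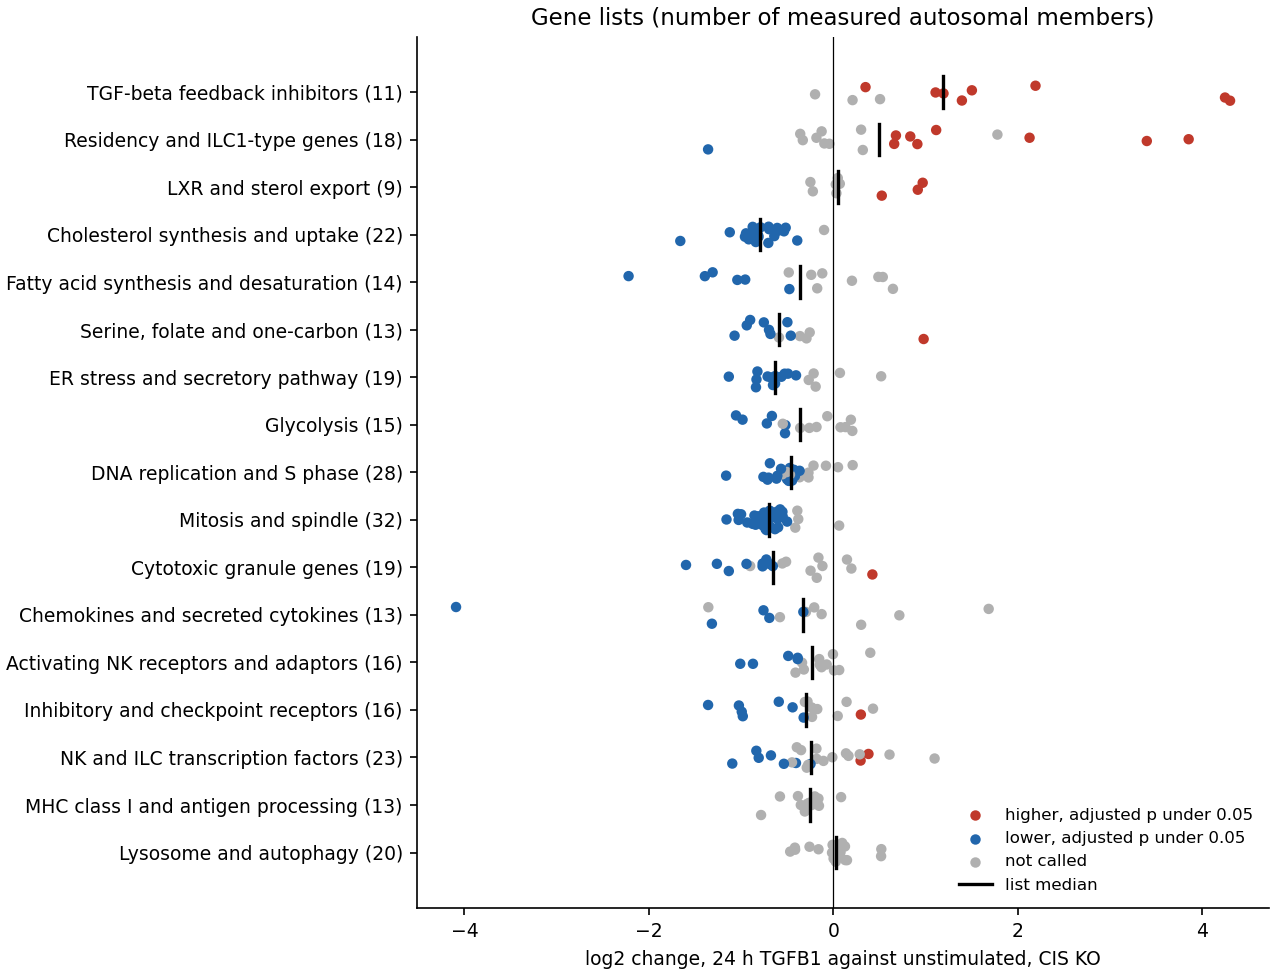
Log2 change at 24 h in CIS KO (horizontal axis) for the measured members of 17 gene lists, with 1 point per gene, coloured by call (adjusted p under 0.05), and black bars for list medians. Feedback inhibitors lie to the right (median 1.19) and cholesterol genes to the left (median -0.80), while medians near 0 mark the LXR and lysosome lists.

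Genes of one-carbon and amino acid metabolism were among those that fell. In the serine, folate and one-carbon list 8 of 13 genes fell and 1 rose (median -0.59). Depth-matched 5 fell, and the rise was not called there or without 24 h replicate 2. Mthfd2, a mitochondrial folate enzyme, was at 359, 352, 324 and 311 CPM unstimulated and at 164, 167, 150 and 153 CPM at 24 h (-1.07 ± 0.10). Psat1, of serine synthesis, fell by 0.94 ± 0.11 and Shmt2, which splits serine in mitochondria, by 0.68 ± 0.11. Of 14 targets of the stress factor ATF4, 5 fell and 2 rose, and depth-matched 2 fell and 1 rose. Among all genes 11.7% fell and 12.6% rose, and 6.89% and 6.35% depth-matched. The falls numbered 3 without 24 h replicate 2 or unstimulated replicate 1. The rises numbered 1 without 24 h replicate 3 or 4 or unstimulated replicate 1 or 4, and neither was called without 24 h replicate 2 or unstimulated replicate 2 or 3. Asparagine synthetase Asns (-0.96 ± 0.20) and the glutathione-degrading enzyme Chac1 (-1.13 ± 0.24) were among the falls. In TGFBRII KO cells Chac1 rose by 1.23. The amino acid carriers Slc1a4 (-1.14 ± 0.27) and Slc7a1 (-0.77 ± 0.12) and the glycyl-tRNA synthetase Gars (-0.56 ± 0.10) also fell. They belong to lists in which 5 of 8 carriers (3 without 24 h replicate 2 or unstimulated replicate 1, 2 depth-matched) and 9 of 20 tRNA synthetases (5 without unstimulated replicate 4, 4 depth-matched) fell.

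Chaperones of the endoplasmic reticulum fell, with 14 of 19 genes lower (median -0.63) and 9 depth-matched (median -0.40). Hspa5, the chaperone BiP, was at 884, 662, 785 and 563 CPM unstimulated and at 476, 365, 443 and 480 CPM at 24 h (-0.71 ± 0.13). Sdf2l1, a partner of BiP, went from 182, 167, 171 and 142 CPM to 86.3, 68.1, 71.7 and 74.9 CPM (-1.13 ± 0.13). The disulfide isomerase Pdia3 fell by 0.65 ± 0.11 and the chaperone Hsp90b1 by 0.63 ± 0.11. In WT 3 of the 19 were called lower (11.5% of all genes were). No difference between the 2 genotypes was called for this list by edgeR or by DESeq2. By edgeR 7 members were lower in CIS KO at an unadjusted p under 0.05. Of 15 glycolysis genes 6 fell (11.7% of all genes did), and 4 depth-matched (6.89%). The falls included the lactate carriers Slc16a3 (149 ± 42.8 to 69.7 ± 16.9 CPM, -1.06 ± 0.20) and Slc16a1 (-0.98 ± 0.18). They also included the glucose carrier Slc2a3 (-0.72 ± 0.11) and the phosphofructokinase Pfkp (-0.67 ± 0.12). Of 15 targets of hypoxia-inducible factors 3 rose and 3 fell, and 3 rose and 1 fell depth-matched. The falls numbered 1 without unstimulated replicate 1 or 2. Over all genes 12.6% rose and 11.7% fell, and 6.35% and 6.89% depth-matched. Car9, a carbonic anhydrase, rose from a mean of 11.8 CPM (adjusted p = 0.000447) and Bnip3l, a mitophagy receptor, by 0.63 ± 0.13, while Ero1a, an oxidase of the endoplasmic reticulum, fell by 0.89 ± 0.17.

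Genes of mitosis fell in CIS KO cells, and by less than in WT. Genotype and sex cannot be told apart in the comparison with WT, as sex-linked transcripts given below differed. Of 32 measured mitosis and spindle genes 28 fell (median -0.70), also depth-matched (28, median -0.82). Shares of all genes that fell were 11.7% and 6.89%. The number of falls in the list stayed between 20 and 28 when each library was left out in turn. Aurka, a kinase of spindle assembly, was at 135, 148, 108 and 157 CPM unstimulated and at 69.3, 86.3, 71.7 and 83.6 CPM at 24 h (-0.81 ± 0.14). Ube2c, the ubiquitin conjugase of the anaphase-promoting complex, went from 124, 94.6, 112 and 112 CPM to 63.7, 51.2, 57.7 and 43.5 CPM (-1.03 ± 0.14). Neither overlapped between groups. The spindle checkpoint genes Mad2l1 (-1.04 ± 0.17) and Bub1b (-0.69 ± 0.11) fell as well. Bub1, a checkpoint kinase, went from 47.0, 51.9, 43.2 and 63.8 CPM to 25.5, 40.5, 20.3 and 29.6 CPM (-0.77 ± 0.22), a call lost without unstimulated replicate 4 (-0.62, adjusted p = 0.0731). The 4 members not called were Kif20a, Kif23, Cenpe and Foxm1.

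In WT, Bub1 went from 63.5, 78.7, 65.4 and 55.2 CPM to 9.40, 9.71, 7.45 and 2.97 CPM (-3.08), and the responses differed by 2.32 ± 0.37 (adjusted p = 0.000236). At 24 h the CIS KO libraries all lay above the WT ones. All 32 mitosis genes were called lower in WT (median -1.84). By the test of the difference 22 of the 32 fell less in CIS KO (1.22% of all genes were higher in CIS KO by this test), and 17 did without CIS KO 24 h replicate 2 and 13 depth-matched. The summed level of the list was 4787 ± 322 CPM unstimulated, 3038 ± 336 at 4 h and 2957 ± 184 at 24 h in CIS KO, against 5476 ± 423 unstimulated and 1762 ± 296 CPM at 24 h in WT. In TGFBRII KO cells it was 4883 ± 484 unstimulated and 5764 ± 348 CPM at 24 h (n = 3 each). By the test of the difference the response of 28 of the 32 was lower in CIS KO than there (4.92% of all genes). In TGFBRII KO cells the median of the list was 0.20 and 0 members were called. At an unadjusted p under 0.05, 8 were higher and 0 lower there. At 4 h, 781 genes were higher and 622 lower in CIS KO (8.01% and 6.38%), and 25 of the 32 mitosis genes and 16 of the 22 cholesterol genes were lower. The 4 h and 24 h comparisons share their unstimulated libraries.

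DNA synthesis followed in part. Of 28 replication genes 17 fell (median -0.46), and 7 depth-matched, against 11.7% and 6.89% of all genes. There were 9 falls without 24 h replicate 2, 11 without 24 h replicate 3 and 10 without unstimulated replicate 4. Mcm5, of the replicative helicase, fell from 158 ± 17.9 to 99.6 ± 10.3 CPM (-0.69 ± 0.14), Cdt1, which loads that helicase, by 0.61 ± 0.12, and Pcna, the sliding clamp, by 0.70 ± 0.15. Uhrf1, which keeps DNA methylation through replication, fell by 0.71 ± 0.17 (-0.48 depth-matched, adjusted p = 0.0684). The ribonucleotide reductase genes Rrm1 (-0.49 ± 0.12) and Rrm2 (71.8, 63.1, 39.3 and 80.5 CPM to 29.7, 25.6, 26.5 and 47.0 CPM; -1.06 ± 0.22) and the thymidine kinase gene Tk1 (-0.79 ± 0.20) fell, and 1 of the 24 h values of Rrm2 lay above the lowest unstimulated one. Among the single genes with the largest falls were 3 histone genes, H3c10 at -2.65 ± 0.53, H4c2 at -2.54 ± 0.47 and H2ac23 at -3.09 ± 0.60, from means of 12.2 to 26.8 CPM. Histone genes were not counted as a list.

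**Figure D4:**
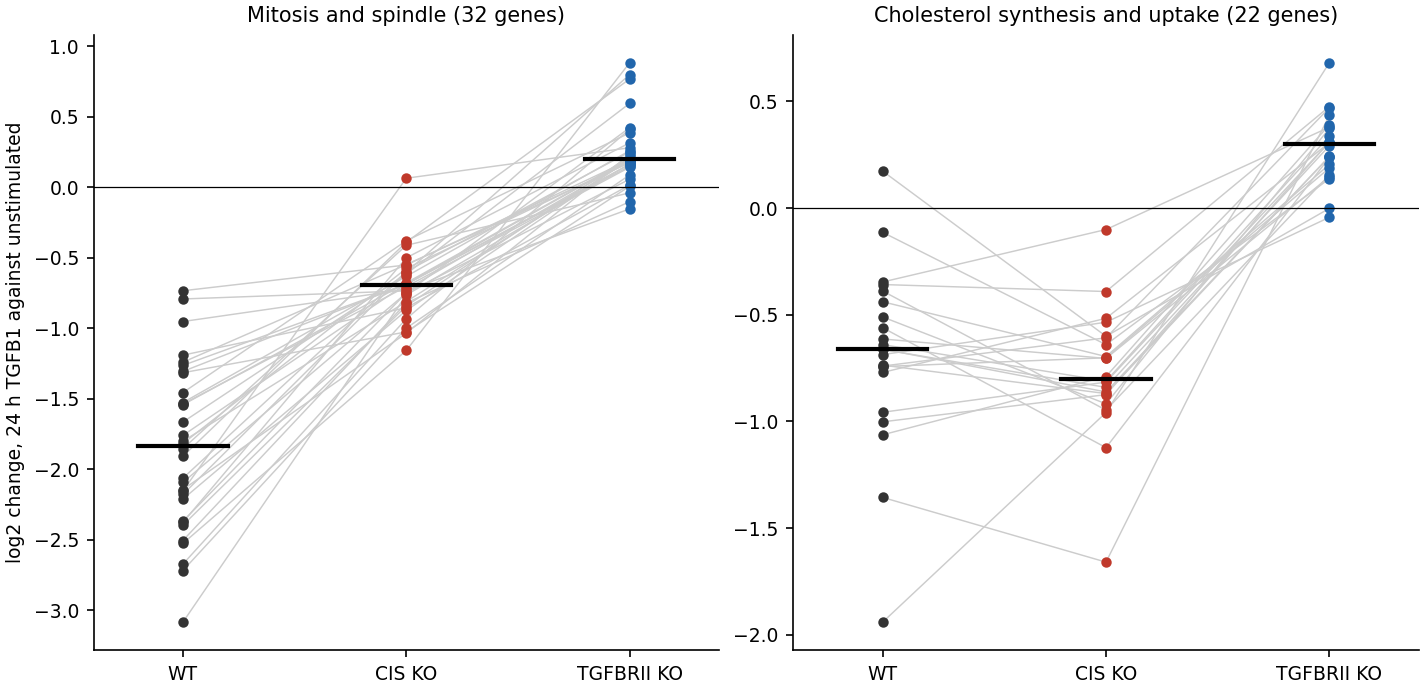
Log2 change at 24 h of each mitosis gene (left, 32 genes) and cholesterol gene (right, 22 genes) in WT, CIS KO and TGFBRII KO, with thin lines joining a gene and bars for medians. Mitosis medians were -1.84, -0.70 and 0.20, and cholesterol medians -0.66, -0.80 and 0.30.

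Over all genes, the CIS KO response resembled that of WT, with which it shares no library. Of the called genes 568 were higher in both, 46.2% of the CIS KO and 59.7% of the WT calls (951 genes, 9.75% of those tested), and 581 were lower in both, 51.1% and 51.9%. Calls in opposite directions were made for 4 genes. Across the 9749 genes, which are not independent, Pearson's r of the log2 changes was 0.72 with WT and 0.02 with TGFBRII KO. In the other genotypes, whose libraries were not in the contrast that made the calls, the genes called higher in CIS KO had a median change of 0.41 (WT) and 0.01 (TGFBRII KO), and those called lower -0.35 and 0.01. Against TGFBRII KO, 448 genes were higher and 480 lower by the test of the difference (4.6% and 4.92%). In the TGFBRII KO response itself 2 genes were called higher, while 373 were higher and 334 lower at an unadjusted p under 0.05.

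Against WT, the CIS KO response was higher for 119 genes and lower for 13 (1.22% and 0.133%, together 1.35%). Depth-matched these were 49 and 4, and without CIS KO 24 h replicate 2 they were 66 and 5. Among the 8 genes with the largest differences, which include Bub1, Pbk, a mitotic kinase, was at 47.0, 61.2, 72.7 and 76.3 CPM and 52.4, 51.9, 35.9 and 43.5 CPM in CIS KO (not called), and at 82.6, 91.1, 86.3 and 71.8 CPM and 9.40, 15.1, 11.9 and 2.97 CPM in WT (difference 2.51, adjusted p = 1.65e-05). The others of the largest 8 were Zik1 (3.50), Fancd2os (2.80), the exonuclease gene Exo1 (2.72), the DNA glycosylase gene Neil3 (2.72), Esco2, which acetylates cohesin (2.41), and the kinase gene Pask (2.36). In CIS KO these 6 genes had group means of 5.94 to 27.2 CPM. In the other direction were the small nucleolar RNA genes Snora81 (-1.77) and Snord13 (-1.37), the arginine methyltransferase gene Prmt1 (-0.98), Ppp2r3d (-0.96), Slc16a6 (-0.94), Prrc2a (-0.90), the interleukin 3 receptor gene Il3ra (-0.89) and Itgam. Of 22 named genes with a called difference, 8 kept it depth-matched and 12 without CIS KO 24 h replicate 2. The lower calls numbered from 4, without WT unstimulated replicate 3, to 41, without WT 24 h replicate 2. Xist ran from 0 to 5.22 CPM in the CIS KO and from 91.1 to 183 CPM in the WT libraries compared, and 4 summed Y-linked genes from 391.7 to 558 and from 1.38 to 124 CPM, so genotype and sex cannot be told apart in this comparison.

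**Figure D5:**
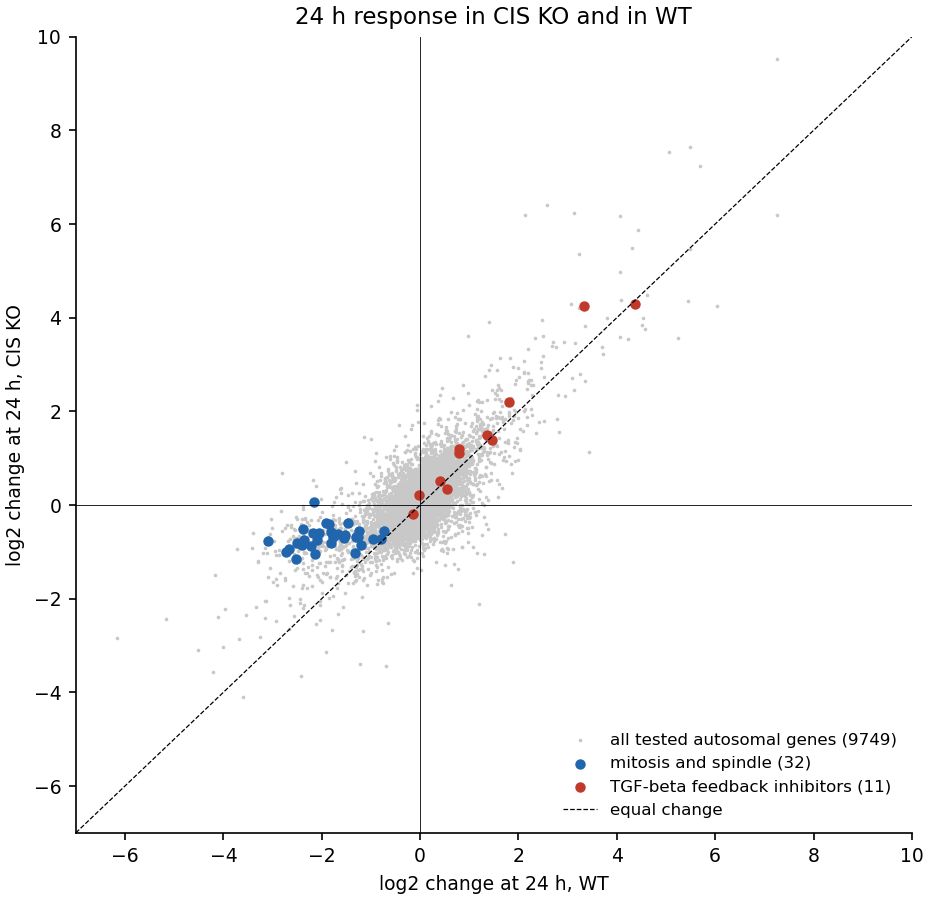
Log2 change at 24 h in WT (horizontal axis) against CIS KO (vertical axis) for 9749 autosomal genes, with mitosis genes in blue and feedback inhibitors in red; the dashed line marks equal change. Feedback inhibitors had medians of 0.80 in WT and 1.19 in CIS KO, and mitosis genes lie mostly above the line, with medians of -1.84 and -0.70.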

How the data were processed

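The deposited table held raw counts per gene, made by the authors and keyed by Entrez identifier, for sorted NK cells extracted with a column kit and sequenced from a strand-keeping kit, per the labels' protocols. Per the submitters' processing notes, FastQC, Trimmomatic, Subread, featureCounts, Picard and SAMtools were used with mm10, with no versions. The sources used here give neither the strand setting nor the handling of duplicates, so overlapping, antisense or near-identical genes may share reads.

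Symbols came from RefSeq GRCm38.p6 for 25275 identifiers and GENCODE M21 for 17; the 1887 without a symbol held 0.956% of counts. All 31 libraries in 9 groups were fitted together in edgeR 4.0.16 (R 4.3.3; TMM; filterByExpr; quasi-likelihood F-test; 22 residual degrees of freedom), with adjustment over 10275 genes, then restricted to autosomes. Differences between genotypes are interaction terms. DESeq2 1.42.0 was an alternative. The code was tested on simulated data. Exon lengths came from GENCODE M21.

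The members, the gene lists and the tests were chosen with earlier results of these data known. Named genes were Cish, for each direction the 15 largest called changes without overlap between libraries and with a mean of at least 5 CPM, up to 4 called members of each list with the smallest p, the 8 largest called differences from WT and the 8 smallest p-values in each direction; unnamed gene models were left out, the text gives part of these, and Lss and the uncalled mitosis and B cell genes were named after their values were seen. Some named genes are not reported here. Depth-matched and merged-pair fits were added after the data were seen. Total counts of 297561 to 1403005 per library limit what low genes can show. Replicates with the same number did not deviate together (r from -0.184 to 0.097 for the CIS KO pairs), so no block was used in the main fit.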

Additional observations from a re-analysis of the deposited data

Results flagged for a closer look

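Single libraries stood apart from the others of their group for some named genes; chance alone does this for about 1 in 20 groups. In unstimulated replicate 2, Egr2 was at 55.7, Gne at 51.9, H3c10 at 7.42 and Itgae at 7.42 CPM. In unstimulated replicate 1 Itgam was at 105, in replicate 3 Pcna was at 118 and Snora81 at 37.3, and in replicate 4 Glipr2 was at 207 CPM. At 24 h, Pask was at 24.3 and Ski at 394 CPM in replicate 2, Pcna at 73.6 CPM in replicate 1, and Serpinb6b at 204 and Tk1 at 52.2 CPM in replicate 4. The total of 24 h replicate 2, 1403005 counts, lay apart from the 590009 to 710013 of the other 24 h libraries.

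The 24 h response differed between CIS KO and WT by the interaction test for 23 named genes. The log2 difference, CIS KO minus WT, was 0.99 for Aurka, 2.32 for Bub1, 2.41 for Esco2, 2.72 for Exo1, 2.80 for Fancd2os, 1.11 for Mad2l1, 2.72 for Neil3, 2.36 for Pask and 2.51 for Pbk. It was 0.78 for Rrm1, 1.80 for Rrm2, 1.38 for Tk1, 1.12 for Uhrf1 and 3.50 for Zik1. It was -0.89 for Il3ra, -0.87 for Itgam, -0.69 for Itgb2, -0.96 for Ppp2r3d, -0.98 for Prmt1, -0.90 for Prrc2a, -0.94 for Slc16a6, -1.77 for Snora81 and -1.37 for Snord13. Genotype and sex cannot be told apart in these differences.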

How the results depend on the processing

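For the CIS KO response, the number of genes called higher and lower was 1230 and 1138. It was 617 and 669 depth-matched, 717 and 646 when the fit held no libraries but these 8, 235 and 125 when a change beyond 1.5-fold was tested, and 750 higher with DESeq2. Leaving out each library in turn gave 743 to 1355 higher and 811 to 1327 lower, with the lowest number of rises without 24 h replicate 2 and of falls without unstimulated replicate 1. Library size alone as the scaling moved the share of higher calls from 51.9% to 59.4%.

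For the difference from WT, 119 higher and 13 lower became 198 and 119 with no low-count filter, 51 and 1 with depth as a covariate, 76 and 3 with only the groups compared, and 49 and 4 depth-matched. The lower calls were 8 with a replicate block, 8 with the like CIS KO pairs merged and the WT pair left apart, and 6 with DESeq2. Leaving out each library in turn gave 66 to 166 higher and 4 to 41 lower. For the difference from TGFBRII KO, DESeq2 called 272 higher against 448, and leaving out each library gave 312 to 528 higher and 333 to 571 lower. For WT the ranges were 755 to 899 and 978 to 1058.

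Same-numbered replicates share only a number here. With a replicate block the CIS KO response had 1069 higher and 995 lower genes, and the difference from WT 103 higher. Of 120 named genes called in the CIS KO response, 120 kept the call with the block and with library size alone, 118 with DESeq2 and 112 depth-matched. When a change beyond 1.5-fold was tested, 61 of the 120 kept it. Of 23 named genes with a called difference from WT, 5 kept it with depth as a covariate and 17 with DESeq2. No direction reversed among these results. Depth limits genes of few counts, and no CIS KO group at 24 h without TGFB1 was analysed here. The causes of these shifts were not tested.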

Other observations

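Further single genes, named by the size or the p of their change, changed in CIS KO cells at 24 h. Mmp9, a secreted gelatinase, fell from 246, 237, 212 and 191 CPM to 53.8, 35.7, 65.5 and 54.0 CPM (-2.15 ± 0.16), and Podnl1, a small leucine-rich proteoglycan, fell by 2.19 ± 0.19 on the log2 scale. Bcat1, which starts the breakdown of branched-chain amino acids, fell by 3.65 ± 0.72 from a mean of 12.6 CPM. Surface and signalling genes with small p-values fell too: Ms4a4b (-1.42 ± 0.11), the adaptor gene Dok2 (-1.42 ± 0.11), Cd93 (-1.37 ± 0.11) and Glipr2 (-1.21 ± 0.10). Dhrs3, a retinaldehyde reductase, rose from 1.33 ± 1.85 to 64.0 ± 11.3 CPM (5.37 ± 0.52).

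Of 15 BCL2 family genes 1 rose and 4 fell (2 fell depth-matched and without 24 h replicate 2, and 2 rose without 24 h replicate 4 or unstimulated replicate 3). Over all genes 12.6% rose and 11.7% fell, and 6.35% and 6.89% depth-matched. Bmf, a BH3-only protein, rose from 24.9, 51.9, 23.6 and 52.7 CPM to 99.1, 78.9, 101 and 108 CPM (1.22 ± 0.19), with no overlap, while Bak1, a pore-forming effector, fell by 0.76 ± 0.16. Genes of MHC class I and antigen processing were not called: edgeR called 0 of 13, with 3 lower at an unadjusted p under 0.05, and DESeq2 called 0. Without 24 h replicate 4 edgeR called 2 lower.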
